A study of Mus musculus with 4 samples.

Results

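Amino acid and choline transporters are membrane carriers of the solute carrier (Slc) families Slc1, Slc3, Slc6, Slc7, Slc36, Slc38, Slc43 and Slc44. They were selected by gene symbol, with earlier results of these data known. All probes whose symbol begins with one of these family names were taken, and 2210409B01Rik, the older symbol of Slc44a4, was added by name. This gave 48 probes for 46 genes, out of 33012 probes on the array. Of the 48 probes, 46 carry a single symbol and 2 are listed under the joined symbol 6430590A10Rik/Slc6a15. Slc44a4 was the only Slc44 gene in the selection, because the other Slc44 genes also stand in the file under older symbols and were not added. These and the other relatives with older symbols were found through the synonyms of the RefSeq gene table and are described apart from the 48 probes.

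Most of these carriers move amino acids across the plasma membrane by exchange or together with sodium or protons. Slc7 light chains reach the cell surface only when bound to a heavy chain, Slc3a2 or Slc3a1, and the pair of Slc3a2 with Slc7a5 brings in leucine, which activates the growth kinase complex mTORC1. The pair of Slc3a2 with Slc7a11 exchanges glutamate for cystine, the source of cysteine for glutathione and, in melanocytes, for the yellow-red pigment pheomelanin. Slc44 proteins are choline transporter-like proteins, and choline is the head group of phosphatidylcholine.

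B16 is a mouse melanoma line of the C57Bl6 strain. Intradermal injection of B16F1 cells gave lymph node metastases, from which B16-RI was grown. B16-RI was then injected in the same way, and the second round gave B16-RII from lymph node metastases and B16-RIIL from lung metastases. The study compared gene expression of the passaged lines with the parental line. All 4 lines were grown in DMEM with 20% fetal bovine serum, and the growth protocol adds 2 mM L glutamine and a limit of 10 passages. The RNA of a line was pooled from different passage numbers, and each passaged line is a population recovered from metastases. The methods also write B16-R2 and B16-R2L for the lines of the second round.

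Digoxigenin-labelled cRNA from 500 ng of total RNA was hybridized to Applied Biosystems mouse arrays, which give 1 chemiluminescence signal per probe. The cultures were made in duplicate, and the table holds columns of a second array for each line. No sample label places these second arrays, so they were not used and whether they are the duplicates was not settled. With the 4 arrays used, 1 per line, a difference between lines has no replicate check and was not tested. The array number limits the precision. A probe counted as detected where its signal-to-noise ratio (S/N) reached 3 and its flag did not pass 5000. Between 13872 and 14855 probes were detected on an array. Signals are the deposited normalized signals, and signals of different probes are not compared. Where 4 signals stand in a row, they follow the order B16, B16-RI, B16-RII and B16-RIIL. Over the probes detected on all 4 arrays, the median difference of these signals from B16 was 0.21 log2 units for B16-RI, 0.41 for B16-RII and 0.22 for B16-RIIL, and differences between lines are to be read against this shift. Where the dimmer side of a comparison was not detected, its own signal, or the array's lowest detected signal where that was higher, stood in for it, and the ratio is given as at least N-fold. All 6 melanocyte markers on the array were detected in every line, with a summed signal between 6395.3 and 7873.8. Of 19 markers of macrophages, fibroblasts, endothelium and lung epithelium on the array, the 4 arrays detected 4, 1, 4 and 5 by any probe in the same order. Summed over the brightest probe of each gene and read only from array to array, the macrophage markers lay between 3.5 and 4.1, the fibroblast markers between 11.8 and 22.2, the endothelial markers between 1.9 and 4.0 and the lung epithelial markers between 2.6 and 3.8. Col1a2, a collagen of fibroblasts, was detected on every array with signals of 6.32, 14.96, 7.40 and 16.66, and was 2.37-fold above B16 in B16-RI and 2.64-fold in B16-RIIL. Another collagen, Col1a1, had its highest signal on B16, with 3.50, 1.36, 2.22 and 2.41, and was at least 2.57-fold lower in B16-RI, while Col3a1, Dcn and Pdgfra were detected on no array. The part of these markers in the differences of the transporters was not tested. In RNA of whole cultures, fewer cells of a type and less RNA per cell cannot be told apart.

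The lines shared a core of 12 transporter genes that was detected on every array, and differed in a set of mostly dim carriers that were detected in some lines only. A further 12 genes were detected on 1 to 3 arrays and 22 genes on none. Of the 48 probes, 12 were detected on all 4 arrays, where 35.2% of all probes were. Detected on 1, 2 and 3 arrays were 5, 4 and 3 of the 48, against 4085, 1610 and 1379 of all 33012 probes. At least 1 array detected 24 of the 48, against 56.6% of all probes. By probe, 15, 18, 20 and 17 of 48 were detected on B16, B16-RI, B16-RII and B16-RIIL. This was 31.2% to 41.7% of the members, against 42.0% to 45.0% of all probes and 48.5% to 54.5% of 198 probes for other Slc carriers.

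A probe was called higher or lower when the signals of the lines differed by at least 1 log2 unit, which is 2-fold, and the brighter side was detected. Among probes detected on either array, 5 of 21 transporter probes were called higher in B16-RI than in B16, which is 23.8% against 10.2% of all probes. Called lower were 2 of 21, or 9.52% against 9.34%. In B16-RII, 4 of 21 were higher than in B16, 19.0% against 13.1%, and 0 were lower, against 7.60% of all probes. In B16-RIIL, 4 of 17 were higher than in B16, 23.5% against 12.7%, and 0 were lower, against 8.41%. From B16-RI to B16-RII, 4 of 23 were higher, 17.4% against 10.1%, and 2 were lower, 8.70% against 6.70%. Between the lines of the second round, 2 of 22 were higher in B16-RIIL than in B16-RII, 9.09% against 7.67%, and 4 were lower, 18.2% against 9.40%. Each of these counts rests on few probes, and Slc44a4, added by name, is among the higher ones in each comparison with B16. Since the comparisons with B16 share 1 array, they are not independent of each other. Only 3 of the 27 calls were made between 2 detected signals, namely Slc7a5 and Slc7a3 in B16-RIIL against B16 and Slc43a3 in B16-RII against B16-RI. With detection required on both arrays the counts of higher probes became 0 of 12, 0 of 14, 2 of 15, 1 of 15 and 0 of 15 in the order given, where 3.36%, 6.68%, 5.85%, 2.76% and 1.22% of all probes were higher. Those of lower probes were 0 throughout, where 1.64%, 1.10%, 1.81%, 0.935% and 3.54% of all probes were lower.

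**Figure D1:**
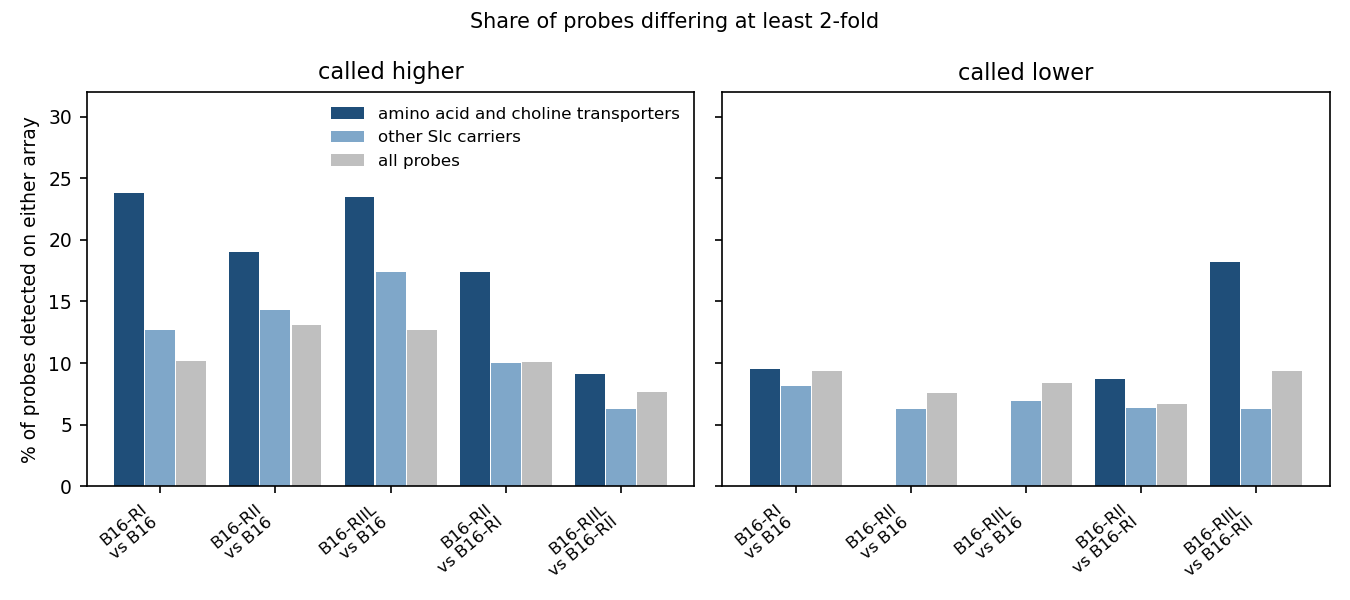
Share of probes called higher (left) or lower (right) in 5 comparisons, in percent of the probes detected on either array. Dark bars are the amino acid and choline transporters, light blue bars the other Slc carriers and grey bars all probes, and the transporter bars stand on 17 to 23 probes each.

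Measured on both sides, the transporters as a group lay within 0.2 log2 units of all genes in the deposited signals. With 1 probe per gene, the median difference from B16 was 0.03 log2 units over 12 transporters in B16-RI, where it was 0.22 over 7668 genes. It was 0.25 over 14 transporters in B16-RII, against 0.44 over 7899 genes, and 0.26 over 15 transporters in B16-RIIL, against 0.25 over 7884 genes. The median step was 0.14 from B16-RI to B16-RII, against 0.21, and -0.004 from B16-RII to B16-RIIL, against -0.16. Other scalings lowered both medians against B16, but not by the same amount. In B16-RIIL, quantile normalization left the transporters at 0.23 against 0.02 over all genes. With quantile normalization, 75th percentile scaling and centred sets, the median was -0.17, -0.12 and -0.17 in B16-RI, -0.05, -0.10 and -0.17 in B16-RII, and 0.23, 0.07 and -0.01 in B16-RIIL, while the median of all genes lay between -0.01 and 0.08 in each of these settings. Of the 12 probes detected on all 4 arrays, 10 spanned less than 1 log2 unit from their lowest to their highest array, and the exceptions were Slc43a3 and Slc7a5. The median span was 0.65 log2 units, against 0.68 over the 11604 probes of the array that were detected on all 4, of which 82.1% spanned less than 1 log2 unit.

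**Figure D2:**
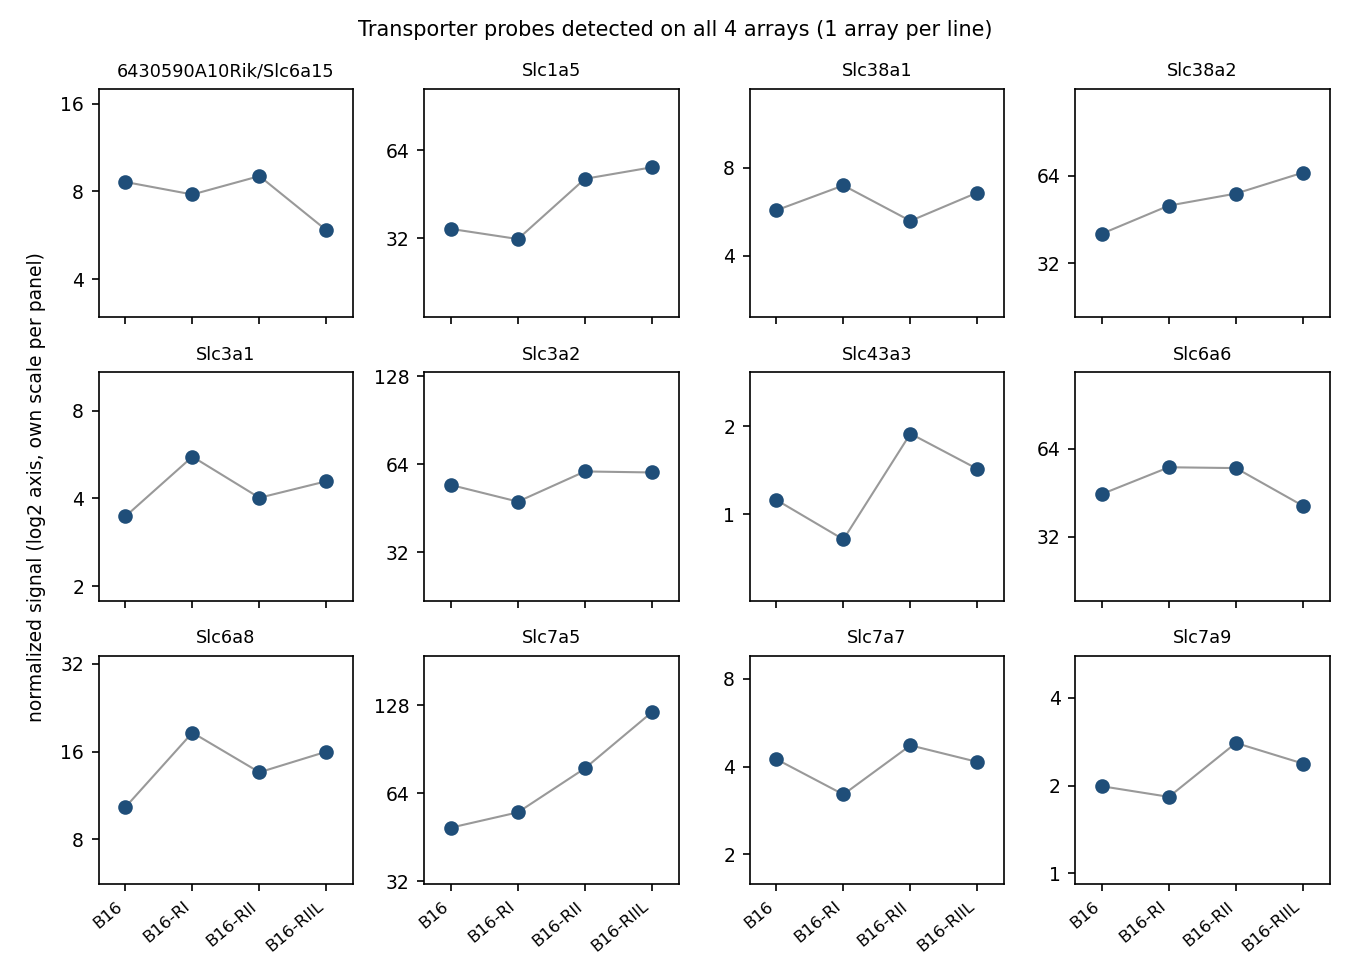
Normalized signal of the 12 transporter probes detected on all 4 arrays, 1 point per array, on a log2 axis with a scale of its own in each panel. Slc7a5 climbs from 48.79 on B16 to 121.40 on B16-RIIL, while Slc3a2 stays between 47.65 and 60.47.

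Among the transporters, Slc44a4 held the largest difference from B16. Slc44a4 (2210409B01Rik) is a choline transporter-like protein that is known in the gut for the uptake of thiamine pyrophosphate. Its normalized signals were 0.45, 12.76, 14.06 and 14.02, of which the first was not detected. Its S/N was -0.41 on B16 and between 14.02 and 45.69 on the other arrays. The gene was thus detected in every passaged line and not in B16, and its ratio to B16 was at least 28.4-fold in B16-RI, 31.2-fold in B16-RII and 31.2-fold in B16-RIIL. After the first round its level moved little. The lowest of the log2 differences over the scalings of the arrays was 4.43.

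Slc44a3, listed as BC010552, belongs to the same choline transporter-like family. It is no member by symbol and was singled out after its values were seen. Its signals were 5.59, 22.30, 54.96 and 52.89, and it was detected on all 4 arrays with an S/N of at least 15.53. This is 3.99-fold B16 for B16-RI, 9.83-fold for B16-RII and 9.46-fold for B16-RIIL. Slc44a3 thus had a further step of 2.46-fold from B16-RI to B16-RII, where Slc44a4 had none past the limit. This step of 1.30 log2 units became 0.88, 0.91 and 0.88 with the other scalings and no longer passed 2-fold. Over the scalings its log2 difference lay between 1.86 and 2.00 in B16-RI, between 2.73 and 3.30 in B16-RII and between 3.01 and 3.24 in B16-RIIL.

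The other Slc44 genes did not share this pattern. Slc44a1 (AW547365), which is known as a broadly expressed choline carrier, had signals of 12.06, 15.31, 7.75 and 13.06. Slc44a2 (1110028E10Rik) had signals of 48.13, 33.32, 46.20 and 62.75. Both were detected on every array and neither was called against B16. Slc44a5 (AA117069) was detected on B16-RIIL alone, with a signal of 2.18 there and between 0.46 and 0.70 on the other arrays, and was at least 4.54-fold above B16. The family thus held 2 genes above B16 in every passaged line, 1 gene above it in the lung line and 2 genes that stayed within 2-fold of it in the deposited signals. The difference of Slc44a1 in B16-RII, -0.64 log2 units, became -1.07 with centred sets.

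**Figure D3:**
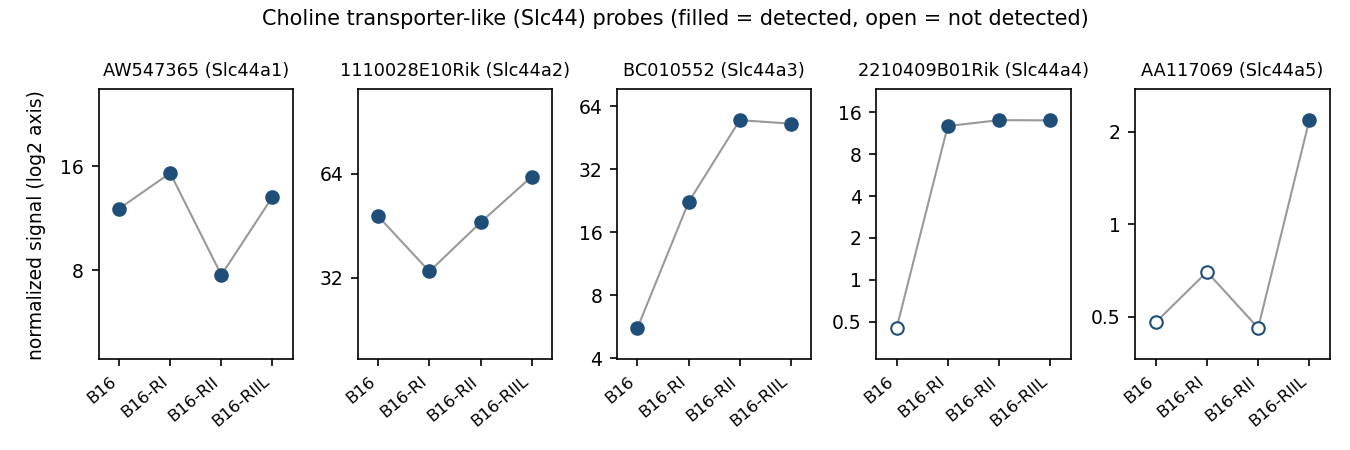
Normalized signal of the 5 Slc44 probes on each array, on a log2 axis with a scale of its own in each panel, with filled points for detected signals and open points for signals not detected. Slc44a3 and Slc44a4 are higher in every passaged line than in B16, and Slc44a1 and Slc44a2 show no such order.

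The start regions of both genes are shown because they differ together from B16. They are RefSeq windows of assembly GRCm38.p6 from 250 bases before to 50 bases after the annotated start, at chr17:34914216-34914515, plus strand, for Slc44a4, and at chr3:121532295-121532594, minus strand, for Slc44a3. Both are printed 5′ to 3′ in the direction of the gene, and in lower case throughout, since neither held a match to one of the 3 motifs searched on both strands.
Slc44a4: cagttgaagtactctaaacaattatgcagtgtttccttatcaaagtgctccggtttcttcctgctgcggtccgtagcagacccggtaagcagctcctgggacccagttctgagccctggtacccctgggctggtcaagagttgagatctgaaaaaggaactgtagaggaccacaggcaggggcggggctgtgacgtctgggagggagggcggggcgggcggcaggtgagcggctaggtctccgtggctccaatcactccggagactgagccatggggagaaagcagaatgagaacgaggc
Slc44a3: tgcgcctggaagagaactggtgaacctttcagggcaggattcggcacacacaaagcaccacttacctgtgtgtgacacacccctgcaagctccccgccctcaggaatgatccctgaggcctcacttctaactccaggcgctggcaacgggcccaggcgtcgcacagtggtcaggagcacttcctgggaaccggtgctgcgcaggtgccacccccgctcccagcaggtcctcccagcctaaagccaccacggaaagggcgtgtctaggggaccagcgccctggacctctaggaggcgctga
Neither window held the letters of the amino acid response core TGATGNAA, the antioxidant response core TGACNNNGC or the M-box core TCATGTG, which is bound by the melanocyte factor Mitf. Of 32851 windows of this length in the table, 3.97%, 12.4% and 3.77% held them. Among 28 transporter genes with 45 windows, 8.89%, 13.3% and 6.67% of the windows did.

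The glutamate and cystine exchanger had its highest signal in the lung line. Slc7a11, its light chain, had signals of 0.87, 2.40, 2.33 and 5.75. The S/N was 2.46, 3.05, 2.96 and 11.62, so B16-RI lay just above the detection limit, B16-RII just below it and B16-RIIL far above it. Slc7a11 exceeded B16 at least 2.76-fold in B16-RI and at least 6.61-fold in B16-RIIL, and at least 2.47-fold higher in B16-RIIL than in B16-RII. The call in B16-RI needs the S/N limit of 3, while those of B16-RIIL remain with a limit of 5. Its log2 difference between B16-RIIL and B16 was between 2.49 and 2.72 over the scalings. The heavy chain Slc3a2 did not move with it, with signals of 54.34, 47.65, 60.47 and 59.99. The catalytic subunit of glutamate-cysteine ligase, Gclc, which spends the imported cysteine on glutathione, had signals of 32.74, 68.29, 73.54 and 77.84, which is 2.09-fold, 2.25-fold and 2.38-fold B16. The differences of Gclc were under 1 log2 unit in B16-RI and B16-RII with each other scaling, and down to 0.73 in B16-RIIL. Gclm, the other subunit of this ligase, had signals of 315.49, 508.08, 629.33 and 364.87 and was called in no comparison.

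The window of Slc7a11 is shown because Slc7a11 is a known target of Atf4, the factor of the amino acid response. It lies at chr3:50443564-50443863, minus strand, and capitals mark the matches.
Slc7a11: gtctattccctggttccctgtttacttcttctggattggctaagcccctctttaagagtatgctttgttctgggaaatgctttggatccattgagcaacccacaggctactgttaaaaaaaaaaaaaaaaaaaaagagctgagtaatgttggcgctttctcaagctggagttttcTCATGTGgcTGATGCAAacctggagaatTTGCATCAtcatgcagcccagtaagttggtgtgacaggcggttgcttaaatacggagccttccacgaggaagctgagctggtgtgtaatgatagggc
The amino acid response core stood there in both orientations, as TGATGCAA beginning 66 bases before the annotated start and as TTGCATCA beginning 47 bases before it. The M-box core TCATGTG began 75 bases before the start. The amino acid response core was also found for Slc7a7, which was called in no comparison and whose window is not shown. Slc1a4, described with the Slc1 carriers, held the same core as TTGCATCA from 4 bases before its start, in the window at chr11:20332664-20332963, minus strand.
Slc1a4: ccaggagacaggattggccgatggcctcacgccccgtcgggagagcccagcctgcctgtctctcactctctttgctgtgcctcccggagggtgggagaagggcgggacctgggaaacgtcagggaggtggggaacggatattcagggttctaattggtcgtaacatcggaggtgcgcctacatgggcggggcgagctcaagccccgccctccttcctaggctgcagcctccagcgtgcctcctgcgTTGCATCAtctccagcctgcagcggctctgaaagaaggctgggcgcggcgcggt
A match describes letters in a window and is not a measured site of binding.

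Among the large neutral amino acid carriers, Slc7a5 stood out in the lung line. This light chain imports leucine, tyrosine and other large neutral amino acids. Its signals were 48.79, 55.06, 77.94 and 121.40. It was highest in B16-RIIL, at 2.49-fold B16, while B16-RI and B16-RII were at 1.13-fold and 1.60-fold. The difference of 1.32 log2 units became 1.07 with quantile normalization and 0.80 with each probe set centred, and no longer passed 2-fold there. The small difference of B16-RI turned from 0.17 to -0.22 in that setting. Slc7a5 lies on chromosome 8, whose 403 genes detected on all arrays were above B16 by a median of 0.62 log2 units in B16-RIIL, 0.36 more than all genes. The part of this shift in the signal of Slc7a5 was not tested. Slc7a6 (AI643885), a y+L light chain on the same chromosome, had signals of 13.43, 15.15, 17.84 and 20.70 and stayed within 2-fold of B16. Slc7a7, the other y+L light chain, had signals of 4.24, 3.21, 4.73 and 4.15. Slc7a8, a neutral amino acid light chain, was detected on B16-RI alone, where its S/N was 3.28. Its signal was 1.19, 3.62, 0.83 and 0.60, so that B16-RI was at least 3.04-fold above B16 and B16-RII at least 4.36-fold below B16-RI. Slc3a1 and Slc7a9, which pair to take up cystine and basic amino acids in the kidney, were detected on every array. The signals of Slc3a1 were 3.47, 5.56, 4.02 and 4.58, and those of Slc7a9 were 1.99, 1.83, 2.80 and 2.38.

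The cationic amino acid carriers, which bring in arginine and lysine, were dim and varied without a common order. Slc7a1, the widely expressed member, had signals of 3.82, 2.14, 4.32 and 3.81 and was not detected on B16-RI. It was at least 2.02-fold higher in B16-RII than in B16-RI, a difference of 1.01 log2 units that became 0.73, 0.62 and 0.59 with the other scalings and was no longer called. Slc7a3 had signals of 1.61, 0.69, 1.06 and 3.69 and was detected on B16 and B16-RIIL. It was at least 2.33-fold lower in B16-RI than in B16 and 2.29-fold higher in B16-RIIL than in B16, and the difference of 1.20 log2 units in B16-RIIL became 0.68 with each probe set centred. Between the lines of the second round it was at least 3.48-fold higher in B16-RIIL. Slc7a2 had 2 probes. One was detected on B16-RI alone, with a signal of 2.21 against 0.61 on B16, an S/N of 3.57, and a ratio of at least 3.62-fold, and was at least 3.11-fold lower in B16-RII than in B16-RI. The other Slc7a2 probe was detected on no array, so it gives no direction.

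Among the Slc1 carriers, the neutral exchangers were detected and the glutamate carriers mostly were not. Slc1a5, a sodium-dependent glutamine carrier, had signals of 34.45, 31.80, 51.15 and 56.02, with B16-RIIL at 1.63-fold B16. Its difference from B16 kept its sign under each scaling and never reached 1 log2 unit. Slc1a4, which carries alanine, serine and cysteine, had signals of 2.27, 1.07, 1.17 and 1.95. It was not detected on B16-RI, where it was at least 2.12-fold below B16, and it was 0.96 log2 units below B16 in B16-RII, which became -1.20, -1.48 and -1.38 with the other scalings. Of the glutamate carriers, Slc1a2 was detected on B16-RII alone. Its signal was 1.32, 1.56, 1.09 and 0.34, so B16 and B16-RI had higher signals than B16-RII without meeting the S/N limit, and B16-RIIL was at least 3.21-fold below B16-RII. Slc1a7 was detected on B16-RI and B16-RII (S/N 4.99 and 3.02), with signals of 1.00, 1.26, 1.33 and 0.33. It was at least 4.03-fold lower in B16-RIIL than in B16-RII, a call that needs the S/N limit of 3. Slc1a3 had a signal of 13.09 on B16 and between 1.72 and 1.93 on the passaged arrays. Its spot on B16 carried a flag of 262146, beyond the limit, so it counted as not detected and no ratio is given.

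Slc38a1, Slc38a2 and 3 carriers of the sodium-coupled Slc6 family were detected in every line and stayed within 2-fold of B16. Slc38a2, a sodium-coupled glutamine and alanine carrier, had signals of 40.46, 50.50, 55.54 and 65.52, with B16-RIIL at 1.62-fold B16. Slc38a1, a close relative, had 5.72, 6.96, 5.26 and 6.58. The taurine carrier Slc6a6 had signals of 44.83, 55.38, 55.02 and 40.85, and the creatine carrier Slc6a8 had 10.31, 18.57, 13.58 and 15.98, at 1.80-fold B16 in B16-RI. One of the probes listed under 6430590A10Rik/Slc6a15, for a neutral amino acid carrier known from neurons, had 8.62, 7.81, 9.03 and 5.89, and the other was not detected. None of these 5 genes differed 2-fold from B16 in any line, and the signs of the small differences of Slc38a1, Slc38a2, Slc6a6 and Slc6a8, as of Slc3a2, depended on the scaling.

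Other members of the Slc6, Slc36, Slc38 and Slc43 families differed 2-fold or more between some of the lines. Slc38a3, a glutamine carrier, was detected on B16-RII alone, with signals of 0.32, 0.42, 0.96 and 0.81, and was at least 3.0-fold above B16 there. Its further call of at least 2.29-fold above B16-RI, 1.19 log2 units, was lost with 75th percentile scaling (0.79) and with centred sets (0.77). Slc36a1, a lysosomal proton-coupled carrier of small amino acids, was also detected on B16-RII alone (S/N 3.83). Its signals were 0.57, 0.45, 1.58 and 0.29, and B16-RII was at least 2.77-fold above B16 and B16-RIIL at least 4.94-fold below B16-RII. Slc6a13, a carrier of GABA and taurine, was detected on B16-RI and B16-RII (S/N 3.31 and 4.50), with signals of 0.59, 1.81, 1.43 and 0.44. It was at least 3.07-fold and 2.42-fold above B16 there and at least 3.25-fold lower in B16-RIIL than in B16-RII. The difference of B16-RII from B16, 1.28 log2 units, became 0.74 with 75th percentile scaling and 0.85 with centred sets, which ends that call. Slc43a3, a nucleobase carrier by present knowledge, was detected on every array with signals of 1.12, 0.82, 1.89 and 1.43 and was 2.30-fold higher in B16-RII than in B16-RI. Its difference of 1.20 log2 units became 0.82 with 75th percentile scaling and 0.78 with centred sets, which ends the call. Where an S/N of at least 5 was required, 1 of 12 transporter probes was higher in B16-RI than in B16, 2 of 14 in B16-RII and 4 of 15 in B16-RIIL, where 6.43%, 10.7% and 10.2% of all probes were.

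**Figure D4:**
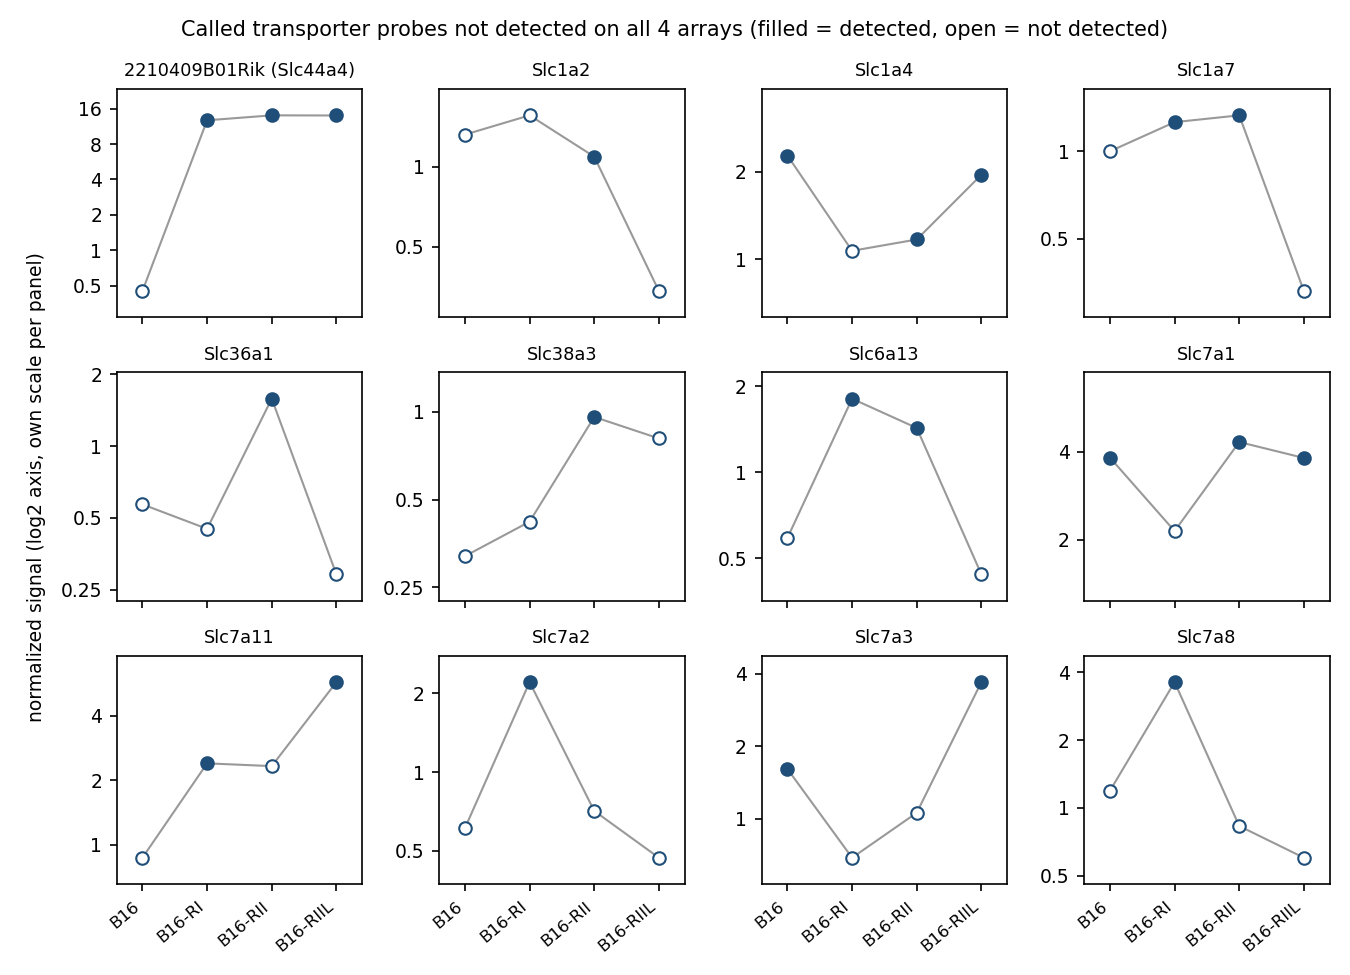
Normalized signal of the 12 called transporter probes that were not detected on all 4 arrays, on a log2 axis with a scale of its own in each panel, with filled points for detected signals and open points for signals not detected. Slc44a4 separates B16 from all passaged lines, Slc7a11 and Slc7a3 peak on B16-RIIL, and Slc7a2 and Slc7a8 are detected on B16-RI alone.

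The 22 transporter genes detected on no array included Slc1a1, Slc1a3, Slc1a6, Slc6a2, Slc6a3, Slc6a4, Slc6a5, Slc6a7, Slc6a9, Slc6a12, Slc6a14, Slc6a18, Slc6a20, Slc7a4, Slc7a10, Slc7a12, Slc7a13, Slc36a2, Slc36a3, Slc36a4 and Slc38a4. They hold the carriers of noradrenaline, dopamine, serotonin, glycine and proline of the Slc6 family. Apart from Slc1a3 on B16, whose spot was flagged, their signals did not reach the S/N limit, and no ratio is given for them.

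Several carriers are known targets of the amino acid response, in which shortage of amino acids raises the translation of the factor Atf4. A list of 28 genes of this response was therefore set beside the transporters, of which 25 were on the array and 23 were detected in at least 1 line. Against B16, 9 of 23 were called lower in B16-RI and 0 higher, where 9.34% of all probes were lower. Chac1 (1810008K03Rik), which degrades glutathione, had signals of 82.42, 17.94, 46.87 and 71.08. Pycr1, an enzyme of proline synthesis, had 4.38, 0.41, 3.75 and 4.88 and was not detected on B16-RI. Ddit4, an inhibitor of mTORC1, had 14.86, 2.34, 2.93 and 11.55, and Eif4ebp1, a repressor of translation, had 1.94, 0.40, 2.00 and 2.27. B16-RI had the lowest signal for each of these 4 genes, and B16-RIIL was back within 2-fold of B16. Ddit4 was detected on neither B16-RI nor B16-RII, so its signals on these arrays were not compared. In B16-RII 3 of 23 were lower than in B16, where 7.60% of all probes were, and in B16-RIIL 2 of 23, where 8.41% were. From B16-RI to B16-RII 7 of 21 were higher, where 10.1% of all probes were, and this count was 4 with each other scaling. Trib3, a pseudokinase of this response, had signals of 54.42, 14.68, 42.77 and 49.57, while Atf3, a stress factor, was 12.73 on B16 and between 3.84 and 5.87 on the passaged arrays. Nupr1, another stress gene, was detected on B16 alone, at 1.07 against 0.57, 0.25 and 0.44. Atf4 itself had signals of 412.21, 387.66, 412.63 and 454.01. The count of 9 was between 6 and 10 under the 6 alternatives run. The counts of 3 in B16-RII and 2 in B16-RIIL were not rerun with them. Chac1, not called in B16-RII, was more than 2-fold below B16 there with each probe set centred.

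The amino acid response genes and the transporters did not follow 1 pattern. Like Chac1, Pycr1, Ddit4 and Eif4ebp1, the carriers Slc1a4, Slc7a1 and Slc7a3 had their lowest signals on B16-RI, where these carriers were not detected. Slc7a3 was not detected on B16-RII either. Slc7a11 differed, since its signal was higher on B16-RI than on B16. In the start regions, 9 of 21 genes of the list with a window held the core TGATGNAA, which is 42.9% of these genes against 4.51% of all 27025 genes with a window. The list was drawn up as genes of this response, so this share describes the list and not the lines. Of the 9 genes with the core, Vldlr was detected on no array. Chac1, Pycr1, Trib3 and Atf3 were called lower in B16-RI, and Aars, Asns, Gars and Nupr1 were not. Ddit4, Ddit3, Gpt2 and Aldh18a1 were called lower there and their windows did not hold the core, and Eif4ebp1 was not among the 21.

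**Figure D5:**
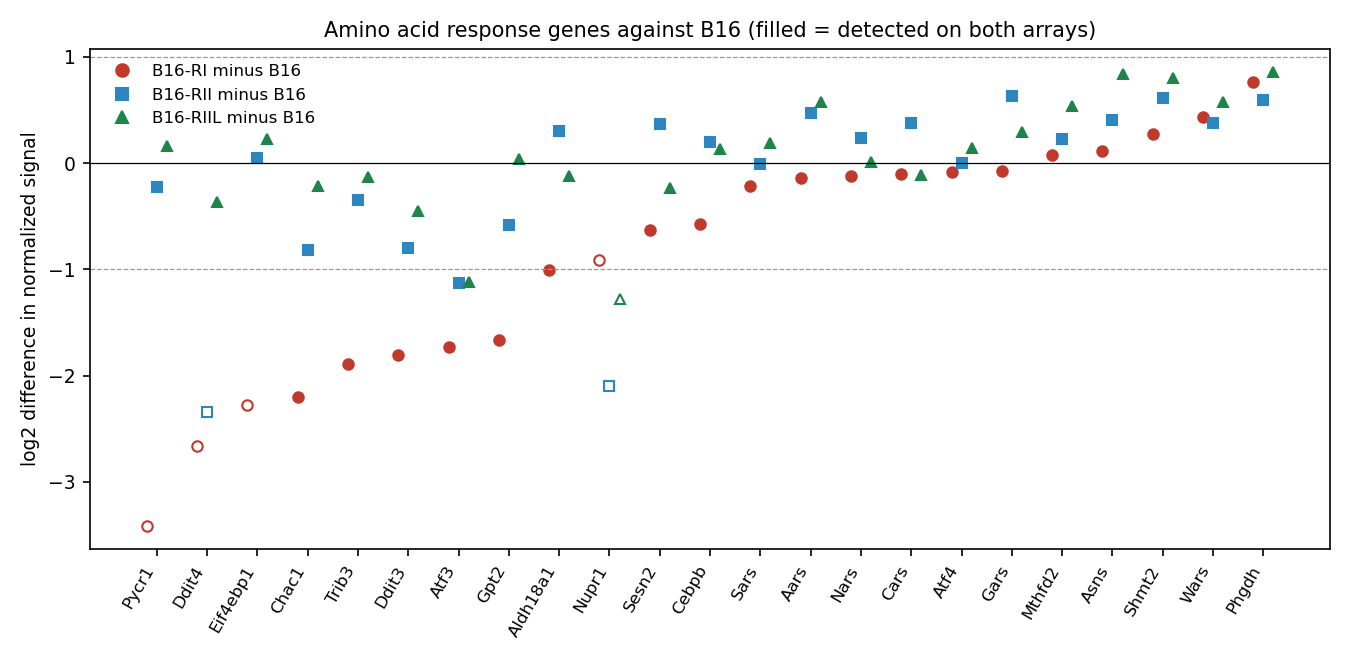
Log2 difference in normalized signal from B16 for the 23 detected amino acid response genes, ordered by the difference of B16-RI. Filled symbols are detected on both arrays, open symbols on 1 of them, and dashed lines mark 1 log2 unit. In B16-RI 9 genes lie below the lower line, against 3 in B16-RII and 2 in B16-RIIL.

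The enzymes that use the carried substrates held few called genes from choline to phosphatidylcholine and a few higher ones in glutamine and glutamate metabolism. Among all probes, 10.2%, 13.1% and 12.7% were called higher than B16 in B16-RI, B16-RII and B16-RIIL, and 9.34%, 7.60% and 8.41% lower. Of 12 genes from choline to phosphatidylcholine, 9 were tested against B16 in B16-RI with 0 higher and 1 lower, 9 in B16-RII with 0 higher and 1 lower, and 10 in B16-RIIL with 1 higher and 1 lower. The lower one was Bhmt, which oxidized choline feeds in methionine synthesis, at 1.10 on B16 and between 0.28 and 0.40 on the passaged arrays, where it was not detected. A second probe for Bhmt was detected on no array, with signals of 0.36, 0.52, 0.38 and 0.28. The choline kinase Chka had signals of 8.86, 11.53, 10.17 and 13.17, so neither the higher Slc44a3 nor the higher Slc44a4 signal came with a 2-fold difference of this first enzyme. Of glutamine and glutamate metabolism, 9 genes were tested in B16-RI with 1 higher, 10 in B16-RII with 3 higher and 9 in B16-RIIL with 1 higher, and 0 were lower in each. Gclc was the gene above 2-fold in all 3 lines. Gpt (Gpt1), which makes alanine from glutamate, had signals of 13.89, 17.15, 37.83 and 22.69, and was 2.72-fold above B16 in B16-RII, which fell to 0.83 log2 units with quantile normalization and 0.92 with 75th percentile scaling.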

How the data were processed

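RNA of 4 mouse melanoma lines was measured with 1 Applied Biosystems array per line. For 33012 probes the authors deposited intensity values, raw and normalized, with a signal-to-noise score and a flag score. The normalized intensity was found to be the raw signal divided by 1 of 2 constants per array, for sets of 16488 and 16524 probes (20 and 28 transporter probes), and not to be quantile normalized, the method the study names. Between arrays the sets were offset. The shift from B16 over detected probes on B16-RI, B16-RII and B16-RIIL was 0.07, 0.42 and -0.01 log2 units in the smaller set, against 0.39, 0.41 and 0.46 in the larger.

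Samples were grouped by their titles, 1 per line. The 16 columns of the arrays that match a sample were used. The 30 columns of second arrays, 20 of them per-sample values, fit none of the samples and were left out, as were 14 derived columns of log2 values and ratios. Log2 was taken without a pseudocount. The comparisons were each passaged line with B16, B16-RII with B16-RI and B16-RIIL with B16-RII, with no test. For medians and for the counts of the gene lists, a gene was represented by its brightest probe. Named were all transporters called in at least 1 of the 5 comparisons, members fixed for their known role, and up to 4 called genes per pathway list and comparison. Slc44a3, relatives under older symbols and a few uncalled genes of the lists, such as Atf4 and Chka, were named after their values were seen. The members and lists were chosen with earlier results of these data known. One undetected transporter gene is not reported here by name. Alternatives were 3 scalings and 3 detection filters.

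RefSeq (GRCm38.p6) gave current symbols for 16186 of 17302 probes with a symbol, for all 46 transporter genes, and the start regions. The build behind the array's probes is not given in the sources used here. The calling rule was tested on simulated data. Python 3.11.15, numpy 2.4.6, pandas 2.3.3 and matplotlib 3.10.9 were used.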

Additional observations from a re-analysis of the deposited data

How the results depend on the processing

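No paired analysis was possible because the labels give 1 sample per line and the second arrays in the table, which no label places, were not used. For the same reason no replicate was left out. Over the transporter counts, 36 of 60 alternative values stayed within 1.5 times the main count, and 19 of 25 medians stayed within 0.2 log2 units. Causes were not tested, except where a filter makes the change itself.

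Scaling moved the following values, and the share over all probes moved with it. Lower in B16-RII than in B16 were 1 of 21 probes with quantile normalization, 1 with 75th percentile scaling and 2 with each probe set centred, against 0, while the share over all probes went from 7.60% to 9.02%, 10.9% and 11.4%. Higher in B16-RII than in B16-RI were 1 of 23 with 75th percentile scaling and 1 with centred sets, against 4, while all probes went from 10.1% to 7.09% and 6.93%. Higher in B16-RIIL than in B16 were 2 of 17 with centred sets, against 4, while all probes went from 12.7% to 8.12%. The median difference from B16 was -0.05, -0.10 and -0.17 in B16-RII with the 3 scalings, against 0.25, where all genes went from 0.44 to 0.01, 0.08 and 0.01. It was -0.17 with centred sets in B16-RI, against 0.03, where all genes went from 0.22 to 0.03, and -0.01 in B16-RIIL, against 0.26, where all genes went from 0.25 to -0.01. Amino acid response genes higher in B16-RII than in B16-RI were 4, 4 and 4 of 21 with the 3 scalings, against 7, an alternative added after seeing the data.

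Filters moved counts by their construction. Without a filter, 7 of 48 probes were lower in B16-RI than in B16 (all probes 7.90%), 7 higher (10.6%) and 4 lower (8.67%) in B16-RII, and 6 lower (10.2%) in B16-RIIL, where the median was -0.03 (all genes 0.14). With an S/N of at least 5, 1 of 12 was higher (6.43%) and 1 lower (5.56%) in B16-RI than in B16, 2 of 14 higher (10.7%) in B16-RII, 1 of 14 higher (7.09%) and 0 lower (2.76%) in B16-RII than in B16-RI, and 1 of 18 lower (6.29%) in B16-RIIL than in B16-RII. With detection on both arrays, 0 of 12 were higher (3.36%) and 0 lower (1.64%) in B16-RI than in B16, 0 of 14 higher (6.68%) in B16-RII, 2 of 15 higher (5.85%) in B16-RIIL, 1 of 15 higher (2.76%) and 0 lower (0.935%) in B16-RII than in B16-RI, and 0 of 15 higher (1.22%) and 0 lower (3.54%) in B16-RIIL than in B16-RII. Signal over background limits the dim members, since a ratio to a signal not detected is a bound. Called differences between passaged lines were also rescaled, an alternative chosen after seeing the data. No called difference of a named gene changed sign under any scaling run.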

Other observations

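Relatives of the same families under older symbols held 16 probes for 14 genes, of which 7 genes were detected in at least 1 line. Slc6a17 (D130012J15Rik), a vesicular carrier of neutral amino acids, had signals of 0.51, 0.67, 2.31 and 4.18 in the order B16, B16-RI, B16-RII and B16-RIIL. It was detected in both lines of the second round alone, at least 4.53-fold and 8.20-fold above B16. Slc38a9, a lysosomal carrier that reports arginine to mTORC1, was measured by 2 probes that disagree in B16-RII. One (4833412L08Rik) had 6.45, 5.78, 2.82 and 6.45, and was 2.29-fold lower in B16-RII than in B16. The other (9130023D20Rik) had 7.42, 7.75, 7.61 and 10.04.

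Of the transporters and their relatives under older symbols, Slc44a3, Slc44a5, Slc6a17, Slc7a11, Slc7a12 and Slc7a14 lie on chromosome 3 in the gene table, of which Slc7a12 and Slc7a14 were detected on no array. The 361 genes of this chromosome that were detected on all arrays differed from all genes by medians of 0.01, -0.05 and -0.04 log2 units in B16-RI, B16-RII and B16-RIIL.

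Of 21 amino acid and choline carriers of other families, 17 were on the array, and 0 of 8, 0 of 9 and 1 of 10 were called higher than B16 in B16-RI, B16-RII and B16-RIIL, and 0 lower. Over all probes 10.2%, 13.1% and 12.7% were higher and 9.34%, 7.60% and 8.41% lower, so the counts of these carriers were at or below that share. The gene was Ctns, the lysosomal cystine exporter, detected on B16-RIIL alone with a signal of 1.87 against 0.73 on B16, at least 2.56-fold. Its log2 difference became 0.84 with each probe set centred. Of 22 genes of amino acid sensing by mTORC1 on the array, 0 of 16, 1 of 17 and 1 of 17 were higher than B16 and 0 were lower, which is also below the share of all probes. The gene was Lamtor2 (Mapbpip), a subunit of the lysosomal anchor of mTORC1, at least 3.50-fold above B16 in B16-RII and 2.48-fold in B16-RIIL, where its log2 difference became 0.79 with each probe set centred.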
